A study of Mus musculus with 2 samples.

Results

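The genes described here encode the machinery that makes ribosomes in the nucleolus: subunits of RNA polymerase I, assembly factors of both ribosomal subunits, and the protein cores of the small nucleolar RNA particles (snoRNPs). They were chosen by gene symbol, as rows that begin with Nop, Utp, Rrp or Nol followed by a digit or with Polr1, together with Gar1, Nhp2, Fbl, Ncl, Npm1, Dkc1, Bop1, Pes1, Wdr12, Rrs1 and Rrn3. This gave 52 of the 18032 listed genes. The rule used names and no measured value. RNA polymerase I itself goes by older names for some subunits in the deposited table, so Twistnb, Cd3eap and Znrd1, which encode further subunits, are not among the 52 and are given with the wider machinery.

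RNA polymerase I transcribes a single kind of gene, the repeated ribosomal DNA, into one long precursor. Before the precursor is cut into the mature ribosomal RNAs, snoRNPs guide chemical modification of its nucleotides. A large complex called the small subunit processome folds and cleaves the part that becomes the small subunit. A separate series of factors builds the large subunit. Pluripotent cells divide quickly and are known for large nucleoli, and many of these genes are known targets of the transcription factor Myc in other cells.

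The data come from 2 libraries of polyadenylated RNA, 1 for each state, both from mouse cells given as wild type. The mESC library is from the embryonic stem cell line ES-E14TG2a in the naive ground state, held in serum-free N2B27 with 100 units/ml of LIF, 1 µM PD0325901, which blocks the ERK pathway, and 3 µM CHIR99021, an inhibitor of GSK3, a mixture known as 2iLIF. The cEpiSC library is from epiblast stem cells converted in culture out of 2iLIF: cells were seeded on fibronectin, kept in 2iLIF for 24 h, and then moved for 2 days to N2B27 that held FGF2 (12 ng/ml) and activin A (20 ng/ml). The cEpiSC group is thus an early stage of a conversion and not an established line, and state and medium differ together between the libraries and cannot be told apart.

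The libraries held 19843719 (mESC) and 19956733 (cEpiSC) estimated counts. The labels were checked against markers: 8 of 13 naive genes were at least 2-fold lower in cEpiSC, and all 10 of 10 tested primed genes at least 2-fold higher. In log2 ratio, 11 of the naive genes were below 0, lowest at Tfcp2l1 (-3.51), Tbx3 (-3.39) and Tcl1 (-2.21). The other 2 were above it, Fgf4 (0.62) and Dppa3 (0.29). Highest of the primed genes were Fgf5 (7.08, with 0 counts in mESC), Pou3f1 (6.25) and Lef1 (4.68). Of 6 pluripotency genes of both states 5 were above 0, highest at Utf1 (2.82), Tdgf1 (1.38) and Lin28a (1.21), and Sall4 was below it (-0.76). Of 9 fibroblast markers 4 were tested, Postn had 0 counts in both libraries, and the summed level was 6.77 TPM in mESC and 8.15 TPM in cEpiSC. Summed levels of extraembryonic endoderm (5 of 8 tested, 33.5 and 14.6 TPM), trophoblast (5 of 8, 61.5 and 35.5 TPM) and neural markers (5 of 7, 89.2 and 36.4 TPM) were lower in cEpiSC, with Foxa2 and Cdx2 at 0 there and Afp and Neurog2 at 0 in mESC. Each of these sums rests mainly on 1 gene, Dab2, Tfap2c and Tubb3 in turn, while 3 of 5, 3 of 5 and 2 of 5 tested markers were above 0, among them the scarce Hand1 (0.15 and 1.79 TPM) and Pax6 (0.06 and 0.77 TPM). Their part in the differences below was not tested. With 1 library per state there is no replicate check, no p-value was computed, and each difference describes these libraries. Fewer cells of a type and less RNA per cell cannot be told apart in such bulk samples.

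Levels are given as the deposited TPM (transcript abundance per length, scaled to a fixed total), which removes transcript length and so allows genes to be compared. Differences are log2 ratios of cEpiSC over mESC from CPM (counts on a fixed total) scaled with TMM (trimmed mean of M values), followed in brackets by the exact 95% interval, which covers counting error only. A gene was tested, in the sense of being ranked, where it reached 1 CPM in at least 1 library.

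The ribosome-making genes as a set took nearly the same share of the unscaled counts in both states, and few members differed by much. The 51 tested members took 0.970% of counts in mESC and 0.969% in cEpiSC. Scaled with TMM, the log2 ratio of their summed level was -0.074 (-0.083 to -0.065), beside -0.073 for all tested genes summed. Tested genes held 99.9% of counts in both libraries, so the value of -0.073 only returns the TMM factors. The pair restates the shares of counts and is no second comparison. Other units moved the value for the members, as given in the last section. Their log2 ratios had a median of -0.018, and the median of all 13243 tested genes was likewise -0.018. No member was at least 2-fold higher, beside 13.6% of all tested genes, and 1 was at least 2-fold lower, beside 9.25%. At 1.5-fold, 1 member was higher, beside 20.7%, and 6 were lower, beside 18.9%. For genes that reached 10 CPM in one of the libraries, as 50 of the 52 members did, the shares at 2-fold were 6.81% higher and 7.96% lower, and those at 1.5-fold were 12.7% and 18.5%.

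The median of the members thus lay at that of all tested genes, but above the -0.077 of genes that reached 10 CPM. Centred on length, it was -0.080, beside 0 for all tested genes by construction. Members stood on both sides of 0 in shares near the background. The ratio was above 0 for 24 members, beside 48.8% of all tested genes and 43.8% of those that reached 10 CPM, and below 0 for 27. The counting interval lay wholly above 0 for 17 members, beside 36.6% of all tested genes, and wholly below 0 for 22, beside 39.1%. Of the genes that reached 10 CPM, 34% lay wholly above 0 and 45.4% wholly below. The intervals of the other 12 members spanned 0, so no difference could be detected for them at these counts. The median half-width of the members' intervals was 0.09 on the log2 scale. The untested member was Nol4, which had 5 counts in mESC and 2 in cEpiSC.

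**Figure D1:**
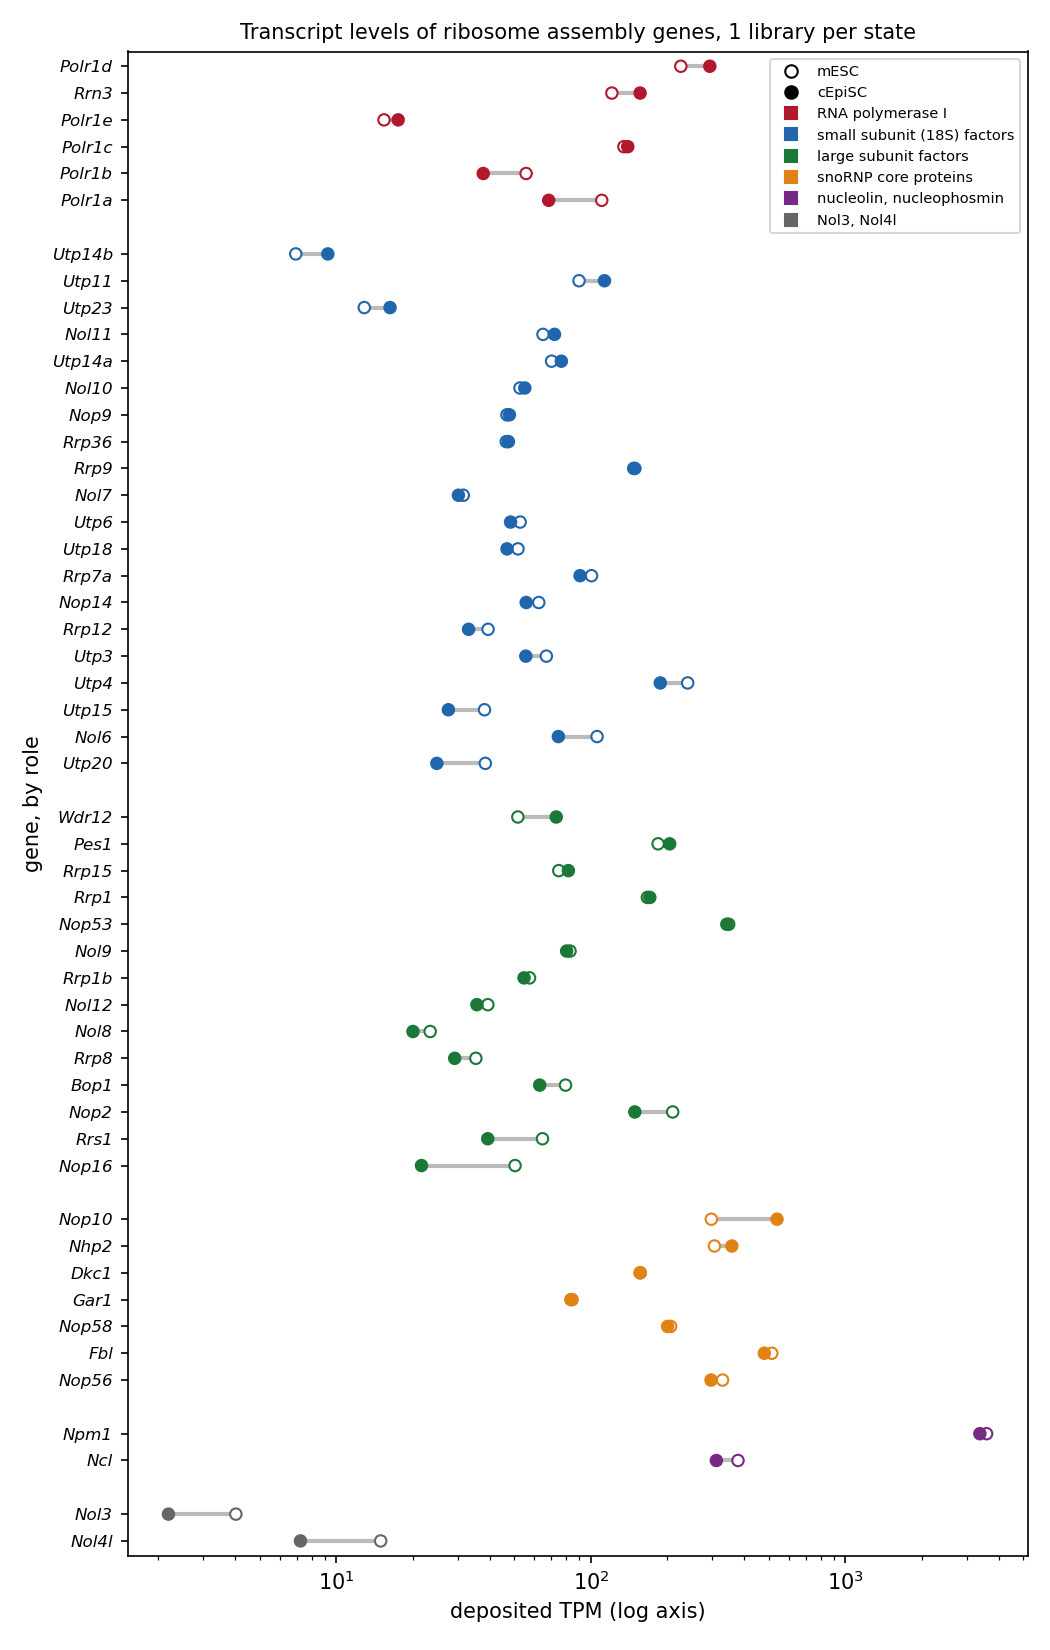
Deposited TPM (log axis) of the 51 tested genes in the mESC library (open circles) and the cEpiSC library (filled circles), grouped by role, each row 1 gene. Most pairs of circles lie close together, and the widest gaps are at Nop16, Nol4l, Nol3, Nop10 and Rrs1.

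In the RNA polymerase I group, the 2 genes for the large core subunits were lower in cEpiSC, while the other subunits and the initiation factor were higher, with Polr1c below 0 (-0.013) once centred on length. Polr1a, which encodes the largest catalytic subunit (GRCm38.p6 chromosome 6, 71909053 to 71979435, gene identifier 20019), had 110.4 TPM in mESC and 68.3 TPM in cEpiSC. Its log2 ratio was -0.65 (-0.70 to -0.59), a 1.56-fold lower level. Polr1b, which encodes the second-largest subunit and forms the active centre with Polr1a, stood at 55.7 and 37.8 TPM (-0.51 [-0.60 to -0.42]). Part of its mESC count was shared with other loci.

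Polr1d, a small subunit that RNA polymerases I and III have in common, was the most abundant of the group at 226 and 293 TPM (0.43 [0.35 to 0.51]). Its assembly partner Polr1c, also common to both enzymes, stood at 135 and 139.7 TPM (0.097 [0.0044 to 0.19]). Taken as a sum, these shared subunits were higher in cEpiSC (log2 ratio 0.29 [0.23 to 0.35]). Polr1e, a subunit particular to RNA polymerase I, was the scarcest at 15.4 and 17.5 TPM (0.23 [0.071 to 0.39]). Rrn3, the factor that makes the polymerase competent to start on ribosomal DNA (gene identifier 106298, chromosome 16, 13780699 to 13814841), stood at 121 and 156 TPM (0.42 [0.36 to 0.47]). In TPM, Polr1d exceeded Polr1a in both libraries, and the gap was wider in cEpiSC.

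The wider RNA polymerase I machinery, from a list of further genes, had a median of -0.14, with 7 of 25 above 0, beside 48.8% of all tested genes, and 18 below. None of the 25 was at least 1.5-fold higher, beside 20.7%. At least 1.5-fold lower were 6, beside 18.9%, and 2 of these were at least 2-fold lower, beside 9.25%, both near the background. The subunit genes kept under older names went both ways: Twistnb stood at 29.9 and 40.5 TPM (0.49 [0.35 to 0.63]), Cd3eap at 25.8 and 18.5 TPM (-0.43 [-0.61 to -0.25]) and Znrd1 at 113 and 103 TPM (-0.082 [-0.23 to 0.066]). The 3 lowest ratios of the list were at Cavin1, known also as a transcript release factor (37.5 and 11.3 TPM, -1.68 [-1.85 to -1.52]), Baz2a, a subunit of the complex that silences ribosomal DNA (154 and 70.7 TPM, -1.10 [-1.14 to -1.06]), and Taf1c, a subunit of the promoter selectivity factor (22.2 and 11.9 TPM, -0.85 [-1.03 to -0.68], with shared reads). The other genes past 1.5-fold included Tcof1, which encodes the nucleolar scaffold treacle (149.7 and 82.9 TPM, -0.80), and Ubtf, which encodes the factor that coats active ribosomal DNA (86.7 and 52.2 TPM, -0.66). Both were named after their values were seen. Cavin1 is best known as a coat protein of caveolae, and Baz2a acts against transcription of ribosomal DNA, so the members that were lower do not all have the role that the list's name gives.

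Largest subunits were lower in each of the 3 nuclear RNA polymerases. Polr2a of RNA polymerase II stood at 170.0 and 58.7 TPM (-1.49 [-1.54 to -1.44]) and Polr3a of RNA polymerase III at 23.4 and 16.0 TPM (-0.50 [-0.63 to -0.37]), beside -0.65 for Polr1a. The second-largest subunits differed less: Polr2b had a ratio of -0.012 (-0.073 to 0.049) and Polr3b one of -0.27 (-0.36 to -0.17), beside -0.51 for Polr1b. These are long transcripts, and ratios fell with length over all tested genes, as described below. Centred on length, Polr1a was at -0.50, Polr2a at -1.17 and Polr3a at -0.35. Polr1b was then at -0.41, Polr2b at 0.034 and Polr3b at -0.12. The part of length was not tested. Polr2b, Polr3a and Polr3b were named after their values were seen.

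**Figure D2:**
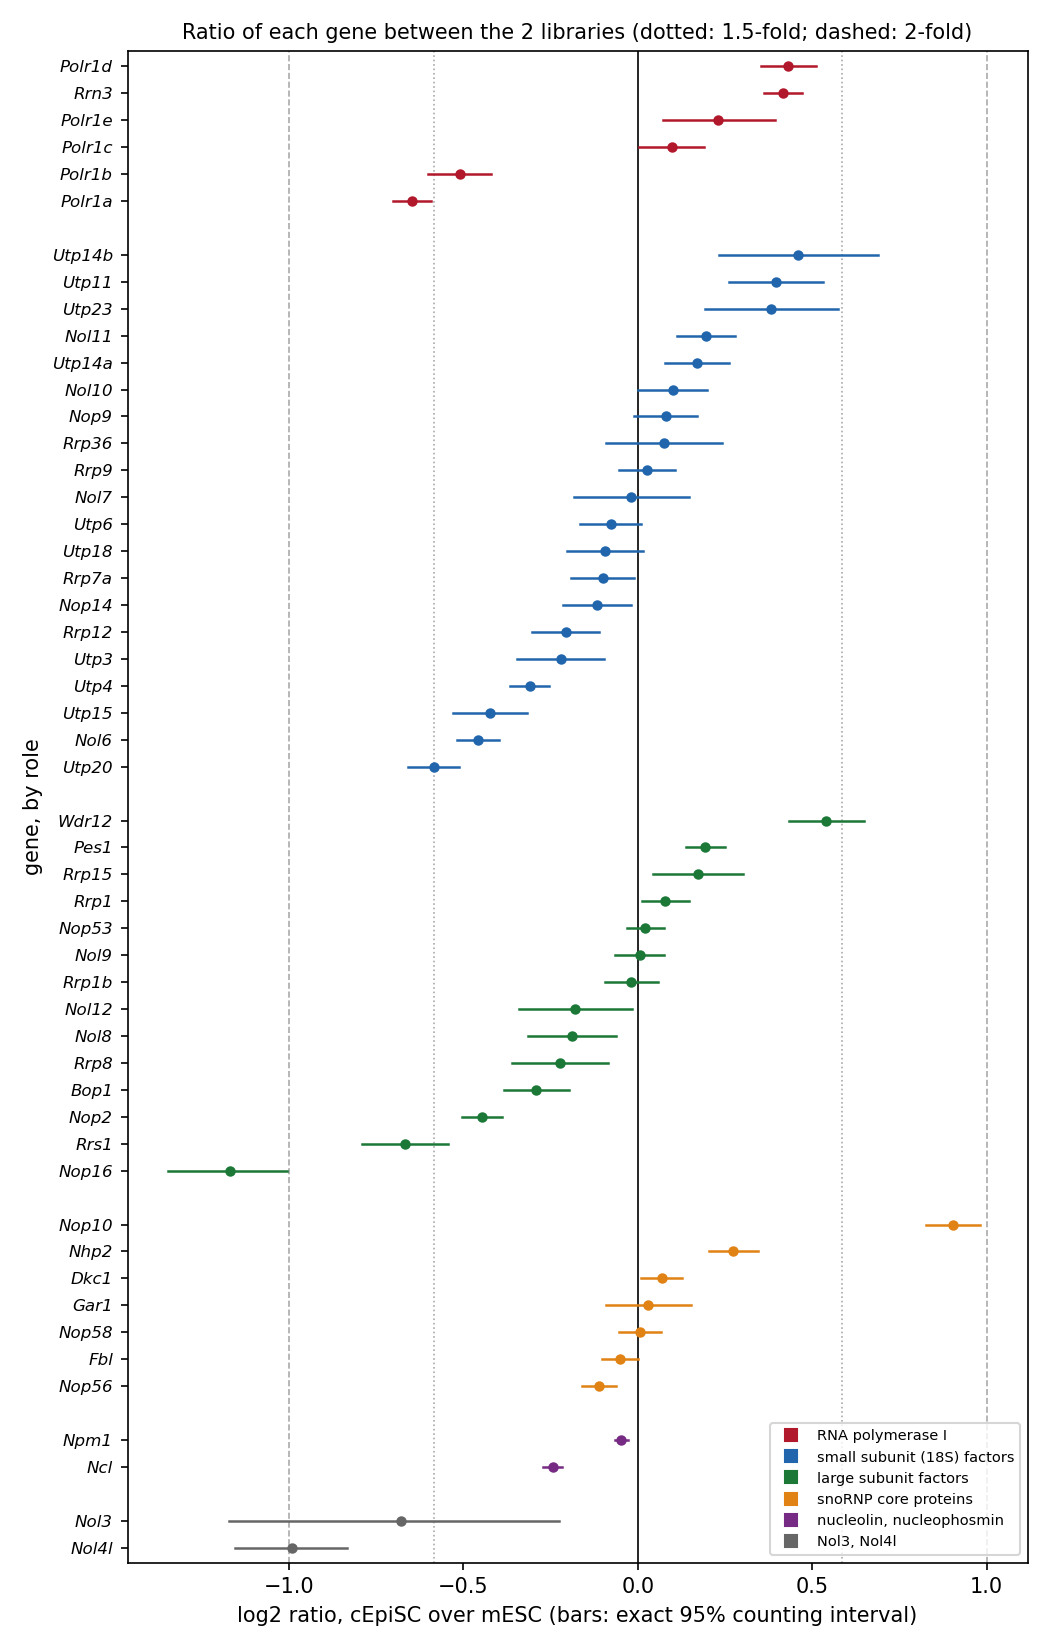
Log2 ratio of cEpiSC over mESC for the 51 tested genes, grouped by role, with bars for the exact 95% counting interval and lines at 1.5-fold (dotted) and 2-fold (dashed). Points fall on both sides of 0 in the first 4 groups, and Nop16 at -1.17, Nol4l at -0.99 and Nop10 at 0.90 lie farthest out.

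The 20 genes of small subunit assembly were spread evenly around 0, with 9 above, 11 below and a median of -0.048. Of these, 6 had an interval wholly above 0, 8 wholly below and 6 spanned it. Summed, the group was at 1368 TPM in mESC and 1259.9 TPM in cEpiSC. Utp4, of the UtpA complex that first binds the nascent precursor, was the most abundant at 240.2 and 188 TPM (-0.31 [-0.37 to -0.25]). Its partner Utp15 was lower as well, at 38.2 and 27.6 TPM (-0.42 [-0.53 to -0.32]). Nol11, also of UtpA, was on the other side of 0 at 64.9 and 72.0 TPM (0.20 [0.11 to 0.28], with shared reads in cEpiSC). Other genes of that complex, named after their values were seen, were likewise divided: Heatr1 had a ratio of -0.31 (-0.38 to -0.24), Wdr43 one of 0.22 (0.16 to 0.29) and Wdr75 one of 0.13 (0.049 to 0.22).

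UtpC, a further building block of the processome, was lower in both its members here, with Rrp7a at 0.0071 once centred on expression. Nol6 stood at 106 and 74.6 TPM (-0.46 [-0.52 to -0.40]) and Rrp7a at 101 and 90.7 TPM (-0.10 [-0.19 to -0.011], with shared reads). The UtpB members Utp6 (52.8 and 48.4 TPM) and Utp18 (51.8 and 46.8 TPM) had intervals that spanned 0. Rrp9, the protein that marks the U3 snoRNP, which guides the first cuts, was nearly level at 149 and 147 TPM (0.026 [-0.055 to 0.11]).

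The lowest ratio of the group was that of Utp20, a very large scaffold protein, at 38.5 and 24.8 TPM (-0.58 [-0.66 to -0.51]). It lies just past the 1.5-fold line. The highest was that of Utp14b, at 6.93 and 9.26 TPM (0.46 [0.23 to 0.69]). Utp14b is known as an intronless copy of Utp14a that sits within another gene, Acsl3, and the germ line is known to depend on it. Its exons overlap those of Acsl3 on the same strand and its reads were partly shared, so its value is uncertain, while Acsl3 itself had a ratio of -0.21 (-0.28 to -0.14). The parent gene Utp14a, an activator of a processome helicase, was more abundant at 70.1 and 76.6 TPM (0.17 [0.079 to 0.26]).

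Utp11 (89.9 and 113 TPM, 0.40 [0.26 to 0.53]) and Utp23 (12.9 and 16.3 TPM, 0.38 [0.19 to 0.57], with shared reads) completed the upper end. Intervals also lay below 0 for Utp3 (-0.22), Rrp12 (-0.21) and Nop14 (-0.12), and barely above 0 for Nol10 (0.10 [0.0012 to 0.20]). Nop9, Rrp36 and Nol7 had ratios of 0.08, 0.075 and -0.018 with intervals that spanned 0, and Nop9 and Nol7 had shared reads. Among 51 further genes of small subunit assembly 29 were above 0 and 22 below, at a median of 0.048. None of these was 1.5-fold higher, beside 20.7% of all tested genes, and 2 were lower by that much, beside 18.9%. They were the helicase gene Dhx37 (35.5 and 18.4 TPM, -0.91 [-1.03 to -0.79], with shared reads) and Pdcd11 (44.6 and 28.0 TPM, -0.62 [-0.70 to -0.54]).

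The large subunit group held the only member that was 2-fold apart. Nop16, a nucleolar assembly factor of the large subunit that is known as a Myc target (gene identifier 28126, chromosome 13, 54584191 to 54590097), had 892 counts in mESC and 418 in cEpiSC, or 50.4 and 21.6 TPM. It was 2.26-fold lower in cEpiSC (-1.17 [-1.35 to -1.01]), and 7.23% of tested genes had a lower ratio. Rrs1, which helps to bring in the particle that holds 5S ribosomal RNA, was next at 64.6 and 39.4 TPM (-0.67 [-0.79 to -0.55]). Nop2, which methylates a cytosine of the large ribosomal RNA, stood at 209.7 and 149 TPM (-0.45 [-0.50 to -0.39]).

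PeBoW, a trimer that is needed for processing of the large ribosomal RNA, had its members on both sides of 0. Wdr12 had the highest ratio of the group at 51.7 and 73.1 TPM (0.54 [0.43 to 0.65]). Pes1 was more abundant and higher by less, at 184 and 204 TPM (0.19 [0.14 to 0.25]). Bop1, which binds both, was lower at 79.6 and 63.0 TPM (-0.29 [-0.38 to -0.20]). In mESC Bop1 thus lay above Wdr12 in TPM, and in cEpiSC below it. The exons of Bop1 overlap those of Mroh1 on the other strand, which was also lower (-0.93 [-1.06 to -0.81]), and those of Wdr12 overlap Carf, which was scarce. Whether counting used strand is not given in the sources used here, so such reads may be mixed.

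Nop53, which brings the RNA exosome to the spacer that is trimmed from the precursor, was the most abundant of the group and level at 348 and 342 TPM (0.022 [-0.031 to 0.075]). Rrp1b (-0.018) and Nol9 (0.005), a kinase that acts in cutting the same spacer, were level too. Rrp15 (0.17) and Rrp1 (0.079) lay above 0, and Rrp8 (-0.22), Nol8 (-0.19) and the nuclease gene Nol12 (-0.18) below. Of 14 members in all, 6 were above 0 and 8 below, at a median of -0.098. Among 58 further genes of large subunit assembly 27 were above 0 and 31 below, at a median of -0.015. At least 1.5-fold higher were 2, beside 20.7% of all tested genes: the ATPase gene Spata5l1 (5.56 and 10.03 TPM, 0.89 [0.59 to 1.21]) and the GTPase gene Gnl2 (73.0 and 107 TPM, 0.59 [0.50 to 0.68], with shared reads). At least 1.5-fold lower were also 2, beside 18.9%: Mdn1, a giant ATPase that strips factors from the particle (21.1 and 9.98 TPM, -1.03 [-1.11 to -0.96]), and Urb1 (21.5 and 13.7 TPM, -0.60 [-0.71 to -0.49]).

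Among the snoRNP core genes that match the rule, Nop10 and Nhp2 of the H/ACA family were higher in cEpiSC, and the other 5 were close to level. H/ACA particles, which turn uridine into pseudouridine and also include telomerase, are built on 4 proteins, and all 4 genes were above 0, although Gar1 was below it in TPM (-0.016) and centred on length (-0.080). Nop10, the smallest of them (gene identifier 66181, chromosome 2, 112261926 to 112262898), had 2068 counts in mESC and 4091 in cEpiSC, or 297 and 539 TPM. It was 1.87-fold higher (0.90 [0.83 to 0.98]), the highest ratio among all members, and its interval stayed short of 2-fold. Nhp2 stood at 306 and 358 TPM (0.27 [0.20 to 0.34]). Dkc1, the pseudouridine synthase itself, stood at 156 TPM in both libraries (0.068 [0.0088 to 0.13], with shared reads in cEpiSC), and Gar1 at 84.4 and 83.5 TPM (0.03 [-0.091 to 0.15]). Nop10 and Nhp2 were thus close to each other in TPM in mESC and apart in cEpiSC. The H/ACA sum went from 844 to 1137 TPM (log2 ratio of summed counts 0.33 [0.29 to 0.36]), and 3 of the 4 intervals lay above 0. Most of that difference was Nop10: without it the sum went from 546.5 to 598 TPM (0.14 [0.099 to 0.18]).

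Box C/D particles place methyl groups on ribose. Their methyltransferase gene Fbl stood at 514 and 481 TPM (-0.05 [-0.10 to 0.0017], with shared reads), Nop58 at 206 and 200.3 TPM (0.0068 [-0.054 to 0.068]), and Nop56 at 329 and 297 TPM (-0.11 [-0.16 to -0.061]). The sum of these 3 box C/D genes went from 1049 to 978 TPM (-0.059 [-0.09 to -0.028]). It leaves out a further core gene, Snu13, whose symbol does not match the rule. Snu13 was higher in cEpiSC, at 348 and 395 TPM (0.23 [0.17 to 0.29], with shared reads). The sum is thus not that of the whole box C/D core, and Snu13 is counted with the further genes that follow. Among 13 further genes of snoRNP assembly 8 were above 0 and 5 below, at a median of 0.23. Of these, 1 was 1.5-fold higher, beside 20.7% of all tested genes, and none was lower by that much, beside 18.9%. The higher gene was Rpap3 of the chaperone complex that assembles box C/D particles (24.8 and 38.4 TPM, 0.68 [0.53 to 0.83]). That value is of 1 gene and not of the complex. The lowest ratio of the 13 was that of Pih1d1 (49.8 and 36.4 TPM, -0.39 [-0.58 to -0.21], with shared reads).

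The most abundant members were little apart. Npm1 encodes nucleophosmin, the protein that forms the outer granular layer of the nucleolus, and stood at 3589 TPM in mESC and 3377 TPM in cEpiSC (-0.047 [-0.065 to -0.029]), a direction that turned with library totals (0.026), with FPKM (0.032) and centred on expression (0.043). Ncl, which encodes nucleolin, stood at 379 and 311 TPM (-0.24 [-0.27 to -0.22]). Both intervals are narrow because the genes hold many counts, and with no replicate the spread between cultures is unknown. Without Npm1 the median of the members stayed at -0.018 and the summed log2 ratio was -0.083.

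Of the symbols that match the rule, Nol3, Nol4 and Nol4l are not known as ribosome assembly factors. Nol3 encodes an inhibitor of cell death. Nol3 (4.03 and 2.19 TPM, -0.68 [-1.17 to -0.23], with shared reads) and Nol4l (14.9 and 7.23 TPM, -0.99 [-1.16 to -0.83]) make up 2 of the 6 members that were at least 1.5-fold lower. Without these 3 genes, 4 members were lower by that much: Nop16, Rrs1, Polr1a and Utp20. The exons of Nol3 overlap another listed gene on the other strand.

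Length of the transcript moved with the ratio. Over the 49 tested members without Nol3 and Nol4l, the ratio and the log of effective length had a Spearman correlation of -0.37, given as a description, since these points share 2 libraries. Over all 13243 tested genes it was -0.16. Among the 17 shortest of these members (644 to 1845 bases) 10 were above 0 and 7 below, and among the 16 longest (3047 to 8745 bases) 6 were above and 10 below. Nop10, with the highest ratio, had the shortest transcript at 644 bases, and Utp20 the longest at 8745 bases. After each ratio was centred on the median of its length decile over all tested genes, Nop10 was at 0.74, Polr1a at -0.50 and Utp20 at -0.27, while Nop16, among the 17 shortest at 1641 bases, was at -1.23. The part of length in the differences was not tested.

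**Figure D3:**
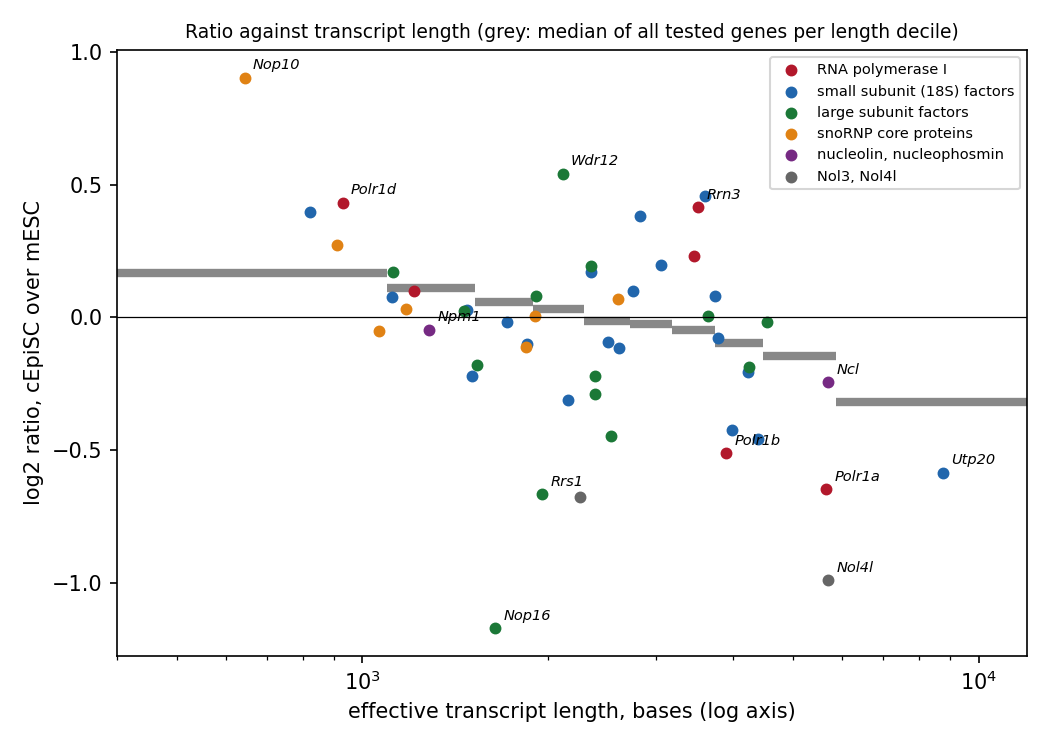
Log2 ratio of cEpiSC over mESC against effective transcript length in bases (log axis) for the tested members, coloured by role, with grey bars for the median ratio of all tested genes in each length decile. The grey medians step down from 0.17 in the shortest decile to -0.32 in the longest, and members lie on both sides of them.

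The lengths implied for each gene hardly differed between the libraries, which bears on whether the same isoforms were assigned. Of 51 members with enough counts, 1 shifted by 0.1 or more on the log2 scale, Nol3 at 0.13, beside 393 of 10526 genes in all. The next largest shift was at Nol12, at -0.083. Annotated snoRNA genes lie within the span of 5 members on the same strand (Nop56, Nop58, Ncl, Nop53 and Dkc1, GENCODE vM21), 9.62% of members beside 1.62% of matched tested genes. These 5 had ratios from -0.24 to 0.068. For 13 members another coding gene starts within 500 bases in the opposite direction, and 5 of the 13 pairs had ratios of the same sign. The shares over all tested genes were not computed, so neither count can be read as particular to the members. Higd2a, beside Nop16, had a ratio of -0.30 (-0.40 to -0.19), and Ptcd3, beside Polr1a, one of 0.28 (0.21 to 0.34).

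Promoter sequence was examined because many of these genes are known Myc targets elsewhere. RefSeq promoters of GRCm38.p6, from 250 bases before the start to 50 after it, were matched for 40 of the 52 genes, with the first window listed for each. The E-box CACGTG, its own reverse complement, was present in 9 of the 40 (22.5%), beside 10.3% of 10578 tested genes and 7.24% of all 27025 genes with a window. The ratios of the 9 ran from -0.58 to 0.46, with 4 above 0, and the 31 without it ran from -1.17 to 0.90, with 17 above 0. So members with these letters were found on both sides. The following stretches show the E-box (capitals) before the start site in an initiation factor and in 3 assembly factors with ratios of 0.42, -0.45, 0.20 and -0.093 in turn. They lie at chr16:13780624-13780683 (plus strand), chr6:125131796-125131855 (plus), chr11:107189392-107189451 (minus) and chr11:93885767-93885813 (minus), each read on the strand of its gene.
Rrn3: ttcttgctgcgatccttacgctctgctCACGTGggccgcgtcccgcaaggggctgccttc
Nop2: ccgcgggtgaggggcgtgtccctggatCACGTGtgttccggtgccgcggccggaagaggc
Nol11: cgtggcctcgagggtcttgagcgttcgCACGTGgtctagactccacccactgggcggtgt
Utp18: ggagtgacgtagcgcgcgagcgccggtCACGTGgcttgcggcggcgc

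The members farthest apart, Nop10 and Nop16, held no E-box in this window. The 60 bases before the start that each RefSeq window uses, at chr2:112261866-112261925 (plus strand) and chr13:54590075-54590134 (minus strand), are shown because the same letters appear in both, although the genes lie at opposite ends of the ratios. The annotated span of Nop16 begins upstream of the start of its window, so 23 of its 60 bases, the capitals among them, lie inside the gene, and none of those of Nop10 do. Capitals mark a stretch of 13 letters that both hold. It was searched elsewhere with any base allowed at its positions 7 and 8, a choice made after these sequences were seen.
Nop10: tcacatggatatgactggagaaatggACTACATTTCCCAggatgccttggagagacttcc
Nop16: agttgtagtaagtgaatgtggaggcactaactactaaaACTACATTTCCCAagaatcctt
On either strand the motif was present in 4 of the 40 members (10%), namely Nop10, Nop16, Polr1b and Nop14, beside 3.65% of tested genes. Nop10 and Nop16 hold it by the way it was chosen, so the 10% is inflated and cannot be compared with the 3.65%. The 386 tested genes that hold it had a median ratio of -0.043, with 15 at least 2-fold higher, beside 13.6% of all tested genes, and 17 lower, beside 9.25%. The other motifs searched were GGGCGG (70% of members, 65.1% of tested genes), CCGGAAG (35% and 18.1%), the palindromic NRF1 motif (0 of 40 members, 2.04% of tested genes) and AAGATGGCG (0 of 40, 3.15%), each on both strands and free to overlap. A match is a description of the letters and not a binding site.

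**Figure D4:**
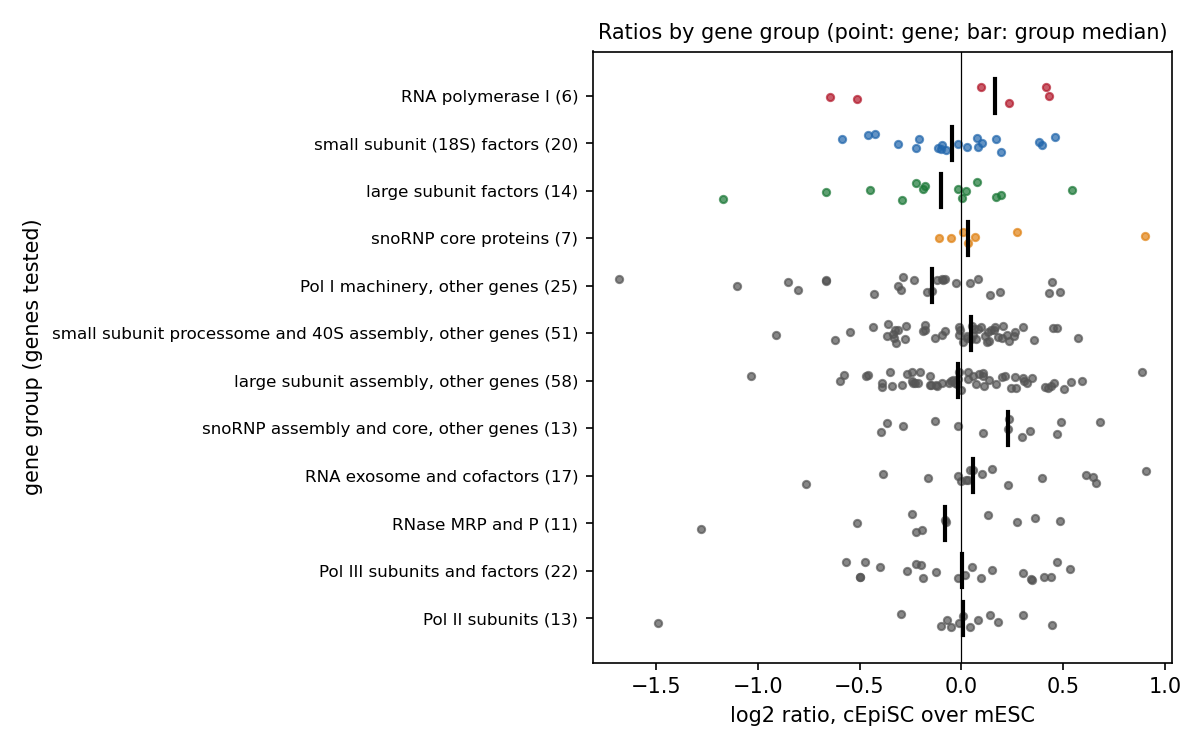
Log2 ratio of cEpiSC over mESC for each tested gene (points) in the main groups of members (coloured) and in related lists (grey), with the group median as a bar and a small vertical scatter for display. Medians lie between -0.14 (further RNA polymerase I machinery) and 0.23 (further snoRNP assembly genes).

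Related machinery also stood on both sides of 0, as the plot by gene group shows. Of 17 genes on a list of the RNA exosome, which trims the precursor, and its cofactors, 12 were above 0 at a median of 0.059. At least 1.5-fold higher were 4, beside 20.7% of all tested genes, and 1 was lower by that much, beside 18.9%. Genes of this list past 1.5-fold included Dis3l (11.5 and 21.2 TPM, 0.91), Exosc5 (153 and 234 TPM, 0.66) and Exosc2 (64.0 and 97.2 TPM, 0.65, with shared reads) on the higher side. On the lower side was the exonuclease gene Xrn2 (109 and 61.8 TPM, -0.77), which is not an exosome subunit. Dis3l is known as a cytoplasmic nuclease. Of 11 genes of the RNases MRP and P, 4 were above 0 at a median of -0.08. At least 2-fold lower was 1, Rpp25 (85.4 and 34.0 TPM, -1.28 [-1.44 to -1.13]), beside 9.25% of all tested genes. The 22 subunits and factors of RNA polymerase III had a median of 0.00094. None of them was 1.5-fold higher, beside 20.7% of all tested genes, or lower, beside 18.9%. The most abundant of them included Gtf3a (125 and 176 TPM) and Maf1 (55.1 and 73.8 TPM). The 13 RNA polymerase II subunits had a median of 0.0091. Only Polr2a was 1.5-fold lower, beside 18.9% of all tested genes, and none was higher by that much, beside 20.7%.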

How the data were processed

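Read counts, TPM and FPKM for 2 libraries came from the deposited table. Per the submitters' processing notes, HISAT2, Bowtie2, RSEM 1.3.1 and DESeq2 1.34.0 were used with GRCm38.p6. Which step each served, which annotation was used and whether counting used strand is not stated there. The deposited read counts are estimated counts that the authors did not scale. The TPM and FPKM columns, per kilobase, were also deposited by the authors. Counts were rounded and scaled with TMM in edgeR 4.0.16 (R 4.3.3), with a prior count of 2 in the log2 ratio. The filter kept a gene that reached 1 CPM in either library. Intervals are exact conditional (Clopper-Pearson) 95% intervals. Reads carry no molecular identifiers and are not independent molecules, so the intervals cover counting error only. The 2 libraries leave no residual degrees of freedom, so calls are by size alone. Reads are called shared where a count lies more than 0.005 from a whole number (10 members). Effective length is that implied by counts and FPKM. Members were given roles from general knowledge. Members and lists were chosen with earlier results of these data known. Named with values were members 1.5-fold or more apart, the extremes and the most abundant of each role, those with shared reads or below the filter, and in each other list up to 3 genes at either end that reached 10 CPM and were 1.5-fold apart, or the 2 most abundant where there was none. All other members and list genes were named after their values were seen. Ratios and intervals were tested on simulated data drawn with counting error only. That test checks the computation and says nothing of the spread between cultures. Alternatives used DESeq2 1.42.0 size factors, other filters, prior counts and units, and centring. Other computation used Python 3.11.15.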

Additional observations from a re-analysis of the deposited data

How the results depend on the processing

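No paired analysis was possible because each state has 1 library. Across 10 alternative settings, 37 of the 51 tested members kept the sign of their ratio (17 above 0, 20 below). The other 14 changed sign under at least 1 setting, the one farthest from 0 being Rrp7a at -0.10. Nop10, Nop16 and Nol4l were at least 1.5-fold apart under all settings. Polr1a was at least 1.5-fold lower under 7 of 11, the main one included. Rrs1 was so under 9, Utp20 under 5 and Nol3 under 10, while Wdr12 was 1.5-fold higher under 3. These counts, and the 37 members above, do not rest on independent settings. A filter cannot change the ratio of a member that is kept, and the prior counts hardly moved that of Polr1a (-0.65 in each). Polr1a fell short of 1.5-fold with library totals (-0.57), with FPKM (-0.56) and centred on length (-0.50) or expression. With library totals, 2 members were at least 1.5-fold higher, and with FPKM 2 were higher and 2 lower. Centred on expression, 1 member was at least 2-fold higher and 2 lower, 2 at least 1.5-fold higher and 3 lower, and the median was 0.079. The log2 ratio of the summed level of members, -0.074 with TMM, was -0.0013 with library totals, -0.036 with TPM, 0.084 with FPKM and -0.083 without Npm1. The median of all tested genes was 0.056 with library totals and 0.049 with FPKM. Library totals leave out the TMM factors, which were 0.975 in mESC and 1.025 in cEpiSC, and so shift all ratios alike. The FPKM columns summed to 543589 in mESC and 590682 in cEpiSC, so FPKM holds a difference in scale that TPM does not. Why the factors and sums differ between the libraries was not tested. Replicates, and not depth, limit the abundant members, and the intervals of 12 members spanned 0.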
